A study of Arabidopsis thaliana with 12 samples.

Results

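Retained introns of 91 to under 300 bases were described in seedlings of Arabidopsis thaliana, as listed in the authors' 2 splicing tables, 1 for the accession Col-0 and 1 for the accession Kn-0. The length from the end of the upstream exon to the start of the downstream exon chose the members, and no measured level entered the choice. Of 55974 retained introns with a level in every library in Col-0, 33425 were members (59.7%), in 8805 genes. Of 53320 in Kn-0, 32269 were members (60.5%), in 8181 genes. The median length was 115 bases in Col-0 and 114 in Kn-0.

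Col-0 is the reference strain of the species and Kn-0 another natural accession, and the labels name no transgene or mutation. Whole seedlings 4 days old, grown under continuous light, spent 3 h on control medium (mock) or on medium with 5 µM abscisic acid (ABA), the stress hormone. Each of the 4 groups had 3 libraries of polyadenylated RNA. Since no label says that they came from separate cultures, p-values measure only the spread between libraries. In the fits of single introns, that spread was pooled over introns of similar depth. Shoot and root were both in the samples: in the deposited gene tables all 4 shoot markers and all 4 root markers were present in both accessions, the lowest being PLT1 with a mean of 163 normalised counts in Col-0. Junction reads over the members ran from 15993471 to 17420828 per library in Col-0, and in Kn-0 from 16658118 to 17482895.

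Introns are cut from a transcript at a donor site, which nearly always begins with GT, and an acceptor site that ends with AG. A retained intron stays in the mature RNA, the commonest form of alternative splicing in plants. In coding sequence it often brings in a stop codon or shifts the frame, and in an untranslated leader it changes the RNA but not the protein. The inclusion level used here is the authors' rMATS value, from 0 (all junction reads spliced) to 1 (all retained), with reads corrected for the length they can cover. It compares only the retained form with 1 spliced junction, so reads of other junctions over the same stretch do not enter it. In libraries of whole seedlings, a change of splicing within cells and a change in which cells hold the transcript cannot be told apart.

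The coding introns on which the ABA and accession results turn are shown whole, as RefSeq gives them for the TAIR10 build, 5′ to 3′, from the Col-0 reference. Capitals mark the first 6 bases, which hold the donor site, the first stop codon in the reading frame of the upstream exon where 1 lies inside the intron, and the final AG. They are intron 8 of AT2G25350 (chr2:10800543-10800675, plus strand), intron 1 of HCS1 (chr2:10952831-10952949, plus strand), intron 6 of AT4G38550 (chr4:18027386-18027501, plus strand), intron 3 of MYB9 (chr5:5516584-5516697, plus strand), intron 14 of LIG6 (chr1:24890529-24890633, plus strand) and intron 6 of AT1G31500 (chr1:11274597-11274740, minus strand).
AT2G25350, 133 bases: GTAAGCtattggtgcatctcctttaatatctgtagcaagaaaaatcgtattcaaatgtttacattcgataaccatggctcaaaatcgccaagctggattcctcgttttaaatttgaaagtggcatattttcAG
HCS1, 119 bases: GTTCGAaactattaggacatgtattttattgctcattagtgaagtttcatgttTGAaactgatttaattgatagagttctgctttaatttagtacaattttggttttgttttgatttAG
AT4G38550, 116 bases: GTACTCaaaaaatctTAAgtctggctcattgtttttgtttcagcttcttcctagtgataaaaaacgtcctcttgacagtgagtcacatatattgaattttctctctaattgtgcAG
MYB9, 114 bases: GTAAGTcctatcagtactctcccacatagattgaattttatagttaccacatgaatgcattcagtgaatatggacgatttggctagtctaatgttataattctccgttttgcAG
LIG6, 105 bases: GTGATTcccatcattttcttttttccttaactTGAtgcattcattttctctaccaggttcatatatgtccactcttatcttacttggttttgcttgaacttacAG
AT1G31500, 144 bases: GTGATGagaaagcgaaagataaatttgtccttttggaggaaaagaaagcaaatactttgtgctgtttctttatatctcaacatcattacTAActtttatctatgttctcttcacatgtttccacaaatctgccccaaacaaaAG
In MYB9 the stop codon TAA starts at base 2 and so lies within the donor site, while the intron of AT2G25350 holds no stop codon in frame but shifts the frame.

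For the leader introns that changed, only the first and last 20 bases are shown, to set donor and acceptor sites side by side, with the first 6 bases and the final AG in capitals. They are intron 1 of ALDH7B4 (chr1:20198856-20198961, minus strand), the first leader introns of ERD15 (chr2:17269491-17269719 and chr2:17269510-17269719, plus strand), intron 2 of GPDHC1 (chr2:17326607-17326792 and chr2:17326607-17326795, plus strand) and intron 1 of ACLA-1 (chr1:3535579-3535773, plus strand).
ALDH7B4, 106 bases, start: GTGATTtttttctctgatct
ALDH7B4, 106 bases, end: tggggtgaatttttgcgcAG
ERD15, 229 bases, start: GTATTAgatctctgtgatgg
ERD15, 210 bases, start: GTTGTTgatctatcttaaaa
ERD15, both introns, end: ttgtttgtttgtgtgtgcAG
GPDHC1, both introns, start: GTAATGctcaagttggtctc
GPDHC1, 186 bases, end: ttgtgtgtgtggaccataAG
GPDHC1, 189 bases, end: tgtgtgtggaccataagaAG
ACLA-1, 195 bases, start: GTAAAGatccgccattttca
ACLA-1, 195 bases, end: tttgattttgttttctccAG
The ERD15 introns share their acceptor and have donors 19 bases apart, and the GPDHC1 introns share their donor and have acceptors 3 bases apart. None of these starts is the full GTAAGT, the donor sequence that pairs best with U1 small nuclear RNA, whereas that of MYB9 is.

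Most members had a level near 0 or near 1, with few in between, and this was so in all 4 groups. Among the 30252 Col-0 members that averaged 10 or more junction reads per library, 52.5% had a mock level under 0.05, 18.3% lay from 0.05 to 0.9 and 29.2% reached 0.9 or more. Under ABA these shares were 52.5%, 18.5% and 29.0%. In Kn-0, with 29429 such members, they were 53.1%, 16.9% and 29.9% in mock and 53.1%, 17.3% and 29.6% under ABA. A level near 1 means only that the listed junction was seldom used, since reads of other junctions do not enter it. Of the 8826 Col-0 members at 0.9 or more in mock, 8359 were junctions absent from the annotation used here. Among annotated Col-0 members, 2.33% reached 0.9. For a member with a mock level from 0.1 to 0.9, the median SD between the 3 libraries was 0.0657 in Col-0 and 0.065 in Kn-0, so single introns of middle level were measured with a wide spread. Too few reads left out 3171 Col-0 and 2835 Kn-0 members, and the reads of 2 and 5 more could not be read from the tables.

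**Figure D1:**
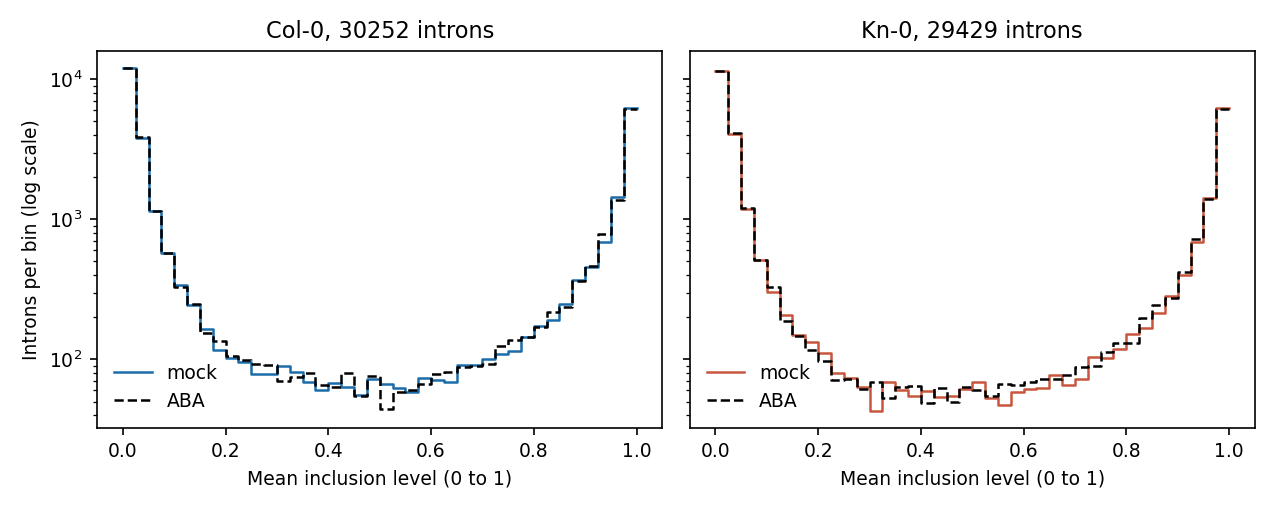
Number of retained introns of 91 to under 300 bases (vertical axis, log scale) by mean inclusion level (horizontal axis, 0 to 1, 40 equal bins), for mock (solid) and ABA (dashed), with Col-0 on the left and Kn-0 on the right. Both ends hold most of the 30252 and 29429 introns, and the mock and ABA lines lie close to each other.

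No shift of the members as a whole was detected under ABA. The median level over members was 0.043, 0.043 and 0.042 in the 3 Col-0 mock libraries and 0.042, 0.0415 and 0.044 under ABA. In Kn-0 it was 0.04, 0.041 and 0.043 in mock and 0.04, 0.043 and 0.042 under ABA. The groups overlapped in both accessions, and the mean difference of ABA minus mock was -0.000167 in Col-0 and 0.000333 in Kn-0 (two-sided exact permutation p = 1 in each, where 3 against 3 libraries cannot go below 0.1). An exact permutation test within accession over all 12 libraries gave a difference of 8.33e-05 and p = 1, where the smallest possible p was 0.005.

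Members had higher library medians than shorter introns and lower ones than longer introns. Library medians were 0.028 to 0.031 for introns of at most 90 bases, 0.04 to 0.044 for members and 0.714 to 0.837 for introns of 300 bases or more. Members exceeded the shorter class in 12 of 12 libraries, by 0.013 ± 0.00154 (SD), and lay below the longer class in all 12, with a difference of -0.741 ± 0.0426 (two-sided exact sign-flip permutation test, adjusted p = 0.00049 for both, the smallest these libraries can give). The size depended on the summary: as means over introns the differences were 0.131 and -0.206, and with at least 20 reads 0.00783 and -0.51, in the same directions. The same introns were read in every library, so this test covers the spread between libraries and not the choice of introns. Col-0 members mix annotated introns, with a median mock level of 0.019, and unannotated junctions, with a median of 0.986. That mix was not counted for the other length classes, so the class medians do not show how often introns of each length are retained. At the lower length limit, Col-0 introns of 90 bases had a median mock level of 0.023 (1008 introns) and those of 91 bases 0.0263 (1008 introns). At the upper limit, the 26 introns 1 base short of 300 had a median of 0.481 and the 21 of 300 bases 0.194. In Kn-0 the corresponding medians were 0.027, 0.0287, 0.0483 and 0.0593.

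Whether the annotation holds the junction separated the levels almost completely. In Col-0, whose coordinates match TAIR10, 66.4% of the members with enough reads were introns of an annotated transcript, with a median mock level of 0.019. The other 10171 were junctions absent from the annotation used here, with a median of 0.986, so the listed splice was seldom used. Of these, 93.6% overlapped another retained intron of the same gene in the table, against 36.9% of annotated ones. The ends GT and AG were found at 98.3% of annotated and 86.1% of unannotated members. Kn-0 introns were on other coordinates, for which no genome sequence was used here, so these features are given for Col-0 alone.

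Among annotated members, those in untranslated regions had far higher inclusion levels than those in coding sequence. The median mock level was 0.0177 for 18729 coding introns, 0.375 for 995 in 5′ UTRs, 0.504 for 256 in 3′ UTRs and 0.466 for 101 in noncoding transcripts. Levels of at least 0.5 were reached by 3.01%, 41.7%, 50.4% and 47.5% of them. Introns with an annotated retained form had a median of 0.165 (2754 introns) against 0.0163 for the other 17327. Overlap with another listed retained intron also differed: 34.7% of coding, 70.6% of 5′ UTR, 56.6% of 3′ UTR and 50.5% of noncoding introns had it. With an annotated retained form it was 62.9%, and without one 32.7%. Reads of other junctions do not enter the level, and the part of overlap in these differences was not tested. All these values are descriptions, since introns of 1 library are not replicates.

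**Figure D2:**
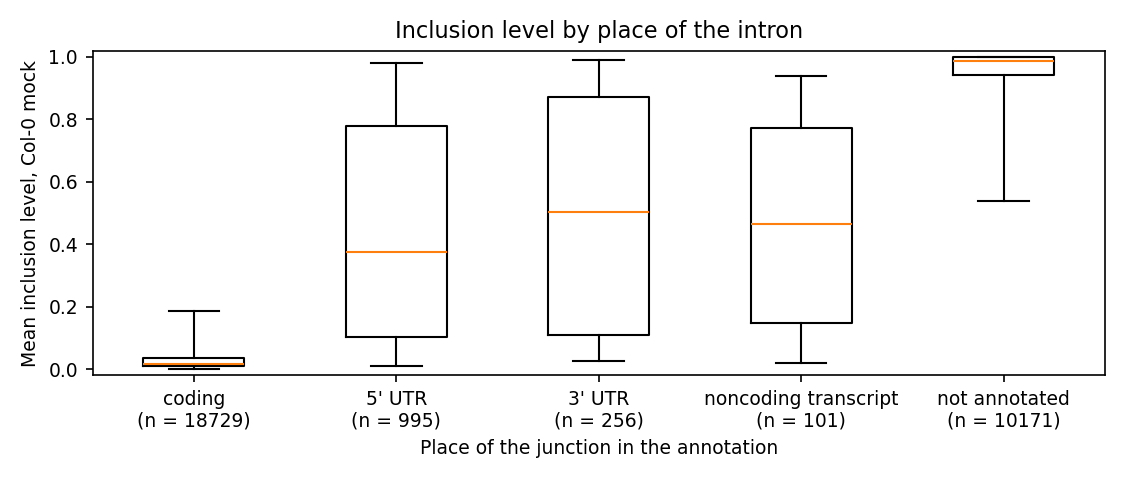
Mean inclusion level in Col-0 mock (vertical axis, 0 to 1) of retained introns of 91 to under 300 bases by place of the junction in the annotation, as medians, quartile boxes and whiskers from the 5th to the 95th percentile. Coding introns lie near 0 with a median of 0.0177, unannotated junctions near 1 with a median of 0.986, and UTR introns spread across the range.

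Coding introns that leave the reading frame open reached a high level most often. Of 18729 coding introns, 589 kept the frame, meaning a length divisible by 3 and no stop codon in frame, and 18.2% of them had a mock level of at least 0.5. That share was 2.47% of the 16858 with a stop codon in frame and 3.12% of the 1282 that shift the frame without one. The medians of the 3 kinds were close, at 0.0203, 0.0177 and 0.0177, so the kinds differed in the upper tail and not in the typical intron.

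Levels also went with the donor sequence and the base composition. The 1681 annotated members that start with GTAAGT had a median mock level of 0.0113, against 0.0197 for the other 18400. By number of bases equal to GTAAGT, the median went in steps from 0.0287 with 2 matches (902 introns) through 0.0233, 0.02 and 0.0163 with 3, 4 and 5 to 0.0113 with all 6. GTAAGT opens 7.31% of all Col-0 members and 7.67% of Col-0 retained introns of every length. The motif was searched only in the first 6 bases and on the transcribed strand. Members starting with ATATCCT or GTATCCT, which resemble the donors of the minor U12 spliceosome, were 115 annotated introns with a median of 0.0383. Of annotated members, the 683 with a GC content over 40% had a median of 0.0373, against 0.018 for the 3973 at or below 30%. With length, the median went from 0.0173 at 91 to 100 bases to 0.0243 above 200 bases.

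The first question of the design was which introns ABA changes in Col-0. In a limma fit on the logit of inclusion against skipping reads, over introns of every length, 42 of 19910 members tested passed an adjusted p of 0.05, in 37 genes, where 0.209% of all 34872 introns tested passed. The members' own share was 0.211%, near that background. Of the 42, 30 rose (0.123% of all introns tested rose) and 12 fell (0.086% fell). The mock and ABA libraries did not overlap for 40 of them, against 9.68% of all introns tested, a gap that the call itself largely fixes, and 18 differed in level by at least 0.1. The common variance of the fit takes no account of an intron's own spread: with the larger of both, 18 passed, 15 of them rises. That check kept the pooled degrees of freedom of the fit, although an intron's own variance rests on few libraries. Its p-values can therefore be too small, here and wherever the larger variance is used below. In a fit without Col-0 mock library 2, numbered by its order in the table, 27 members passed. In the authors' deposited table, an rMATS FDR under 0.05 with a difference of at least 0.1 held for 100 members, 45 higher and 55 lower, where 0.309% of introns of every length with enough reads passed. 18 members passed both rules.

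In Kn-0, fitted on its own, the counts were similar. Of 19579 members tested 43 passed, in 33 genes, where 0.226% of 34104 introns of every length passed and the members' own share was 0.22%. Of these 26 rose (0.103% of all rose) and 17 fell (0.123% of all fell), 37 did not overlap between groups, against 9.73% of all introns tested, and 17 differed by at least 0.1. With the larger variance 21 passed, 17 of them rises. The authors' deposited rMATS rule held for 83 members, 30 higher and 53 lower, where 0.242% passed at every length, and 14 passed both rules.

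**Figure D3:**
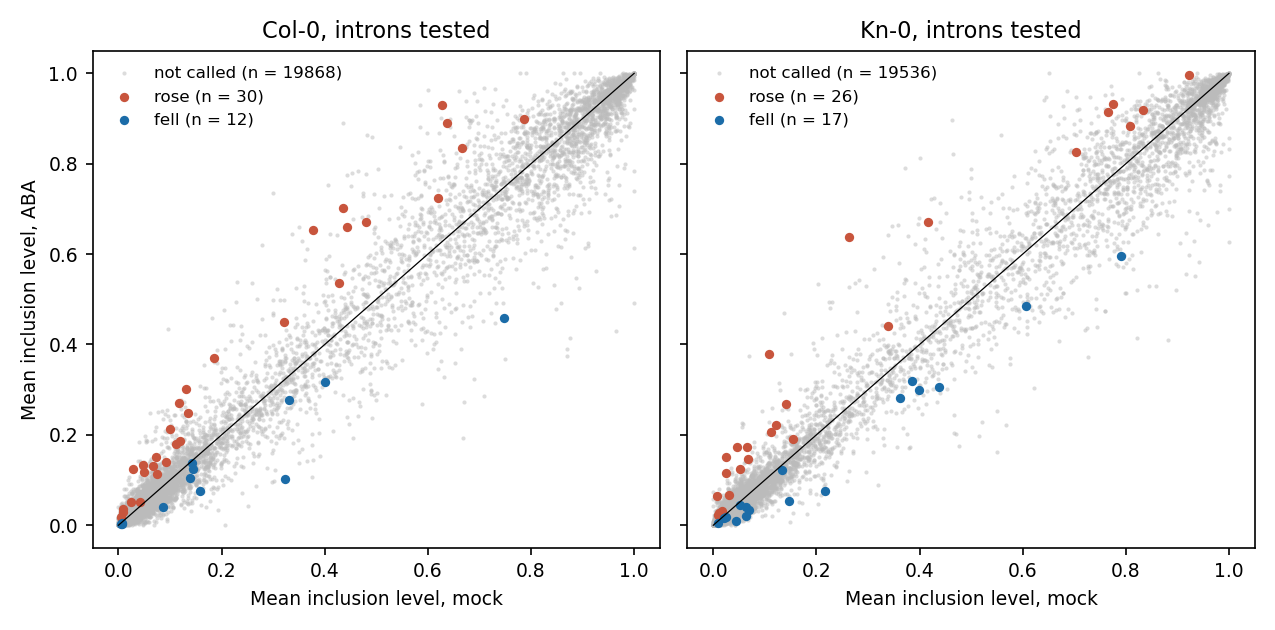
Mean inclusion level under ABA (vertical axis) against mock (horizontal axis) of each member tested, Col-0 on the left and Kn-0 on the right, both 0 to 1, with the line of equality. Members that rose are red (30 and 26) and members that fell blue (12 and 17), and called members are found from low to high mock levels.

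The accessions shared part of their calls. Since intron coordinates differ between the tables, introns were paired by gene, strand, length and position, which gave 23 of the 42 Col-0 calls and 24 of the 43 Kn-0 calls a partner. Of these, 14 introns in 12 genes were called in the same direction in both accessions, 11 higher and 3 lower, and 0 in opposite directions. They make up 33.3% of the Col-0 and 32.6% of the Kn-0 calls. With the larger variance in each accession, 7 of the 14 passed in both, 6 of them rises. These were in ALDH7B4, ERD15 (229 bases), AT2G25350, GPDHC1 (both introns), ERDJ3B and PYK10. By the authors' deposited rMATS FDR, all of these but PYK10 were under 0.05 in both accessions.

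The shared rises with the largest differences in level were in leader introns of ALDH7B4, ERD15 and GPDHC1 (186 bases) and a coding intron of AT2G25350. ALDH7B4 (AT1G54100) encodes an aldehyde dehydrogenase induced by drought. Its intron 1 had levels of 0.465, 0.453 and 0.391 in the Col-0 mock libraries and 0.7, 0.694 and 0.71 under ABA, and 0.386, 0.416 and 0.449 against 0.658, 0.682 and 0.675 in Kn-0. All ABA libraries lay above all mock libraries of both accessions. The change in logit was 1.12 ± 0.05 (SE, adjusted p = 1.4e-90) for Col-0 and 1.04 ± 0.05 (adjusted p = 3.3e-94) for Kn-0. Over the 3 libraries, retained reads were 1719 in mock and 7787 under ABA in Col-0, and spliced reads 1211 and 1785. The other 10 introns of the gene tested in Col-0, at every length, differed by -0.001 to 0.00433 in level, and the 12 tested in Kn-0 by -0.00333 to 0.044, and 0 of either passed. In the authors' deposited tables the gene itself had a log2 fold change of 1.88 in Col-0 against 1.5 in Kn-0.

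ERD15 (AT2G41430) encodes a small protein induced early in dehydration. Its intron of 229 bases was at 0.644, 0.617 and 0.624 in Col-0 mock and at 0.972, 0.898 and 0.918 under ABA (logit change 1.87 ± 0.23 SE, adjusted p = 5.4e-12). In Kn-0 it was at 0.724, 0.789 and 0.783 and at 0.899, 0.919 and 0.926 (1.17 ± 0.19, adjusted p = 2.5e-06). In neither accession did the groups overlap. Here the spliced reads moved: they were 227 in mock and 27 under ABA in Col-0, with 157 and 46 in Kn-0, while retained reads were 765 and 682 in Col-0 against 1032 and 998 in Kn-0. A longer intron of 317 bases in Kn-0, outside the length range, had a mean of 12215 junction reads per library against 372 for that of 229 bases, and its reads do not enter these levels. It fell, from 0.0187 to 0.0133 (adjusted p = 2.1e-06), the opposite direction. The intron of 210 bases, which shares the acceptor printed above, went from 0.638 ± 0.095 (SD, n = 3) to 0.89 ± 0.0294 in Col-0, and in Kn-0 it went from 0.776 ± 0.0387 to 0.932 ± 0.0278. With the larger variance its call held in Kn-0 (adjusted p = 0.0032) and was lost in Col-0 (adjusted p = 0.088).

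GPDHC1 (AT2G41540) encodes a cytosolic glycerol 3-phosphate dehydrogenase. The intron of 186 bases stood at 0.644, 0.7 and 0.653 in Col-0 mock and 0.799, 0.85 and 0.853 under ABA (logit change 0.94 ± 0.09 SE, adjusted p = 8.2e-24). In Kn-0 it stood at 0.661, 0.711 and 0.737 and at 0.8, 0.852 and 0.827 (0.7 ± 0.08, adjusted p = 1.2e-15). The ABA libraries were above the mock libraries throughout. With the larger variance the adjusted p at 186 bases was 1e-06 in Col-0 and 0.0046 in Kn-0. The intron of 189 bases, 3 bases longer at its acceptor, went from 0.787 ± 0.0131 to 0.9 ± 0.0191 (SD, n = 3) in Col-0, and in Kn-0 it went from 0.809 ± 0.0289 to 0.884 ± 0.00971. These introns share their donor and nearly all retained reads, 1696 and 1709 in Col-0 mock, so they are not independent.

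Kn-0 listed a further pair in GPDHC1, upstream of these and with no Col-0 intron of that length. The intron of 236 bases had the largest rise of all members called in Kn-0, from 0.246, 0.271 and 0.273 in mock to 0.615, 0.64 and 0.655 under ABA (logit change 1.57 ± 0.17 SE, adjusted p = 1e-15). The intron of 233 bases, with the same start, went from 0.0453 ± 0.00586 to 0.173 ± 0.012 (SD, n = 3, adjusted p = 7.4e-29). Spliced reads were 162 in mock and 136 under ABA at 236 bases, against 1318 and 1196 at 233 bases. Retained reads were 117 and 478 against 128 and 502, so the pair is not independent. The higher levels at 236 bases are thus set against the less used of the 2 junctions. Of the 7 GPDHC1 introns tested in Kn-0, 4 rose and the other 3 differed by -0.00167 to 0.0123. The gene had a deposited log2 fold change of 1.06 in Kn-0 and 1.19 in Col-0 in the authors' deposited table.

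In AT2G25350, which encodes a protein with a phosphoinositide-binding PX domain, the rise was in coding sequence. Intron 8 was at 0.161, 0.147 and 0.086 in Col-0 mock and 0.25, 0.328 and 0.328 under ABA (logit change 1.02 ± 0.18 SE, adjusted p = 4.1e-05). Kn-0 had 0.097, 0.116 and 0.115 and then 0.336, 0.401 and 0.404 (1.59 ± 0.18, adjusted p = 1e-15). The groups stood apart in both accessions. Retained reads were 71 in mock and 232 under ABA in Col-0, beside 235 and 266 spliced reads. For Kn-0 they were 70 and 314, beside 283 and 254 spliced reads. The 2 introns listed just before it in Col-0, of 120 and 123 bases, had level differences of 0.105 and 0.075 that did not pass (adjusted p = 0.12 and 0.15).

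In AT4G38550 most introns tested along the gene rose. Of its 6 introns tested at every length in Col-0, 5 rose, and the remaining one had a level difference of 0.0673 that did not pass. In Kn-0 all 3 tested rose. The intron of 116 bases was at 0.073, 0.082 and 0.065 in Col-0 mock and 0.145, 0.157 and 0.149 under ABA (logit change 0.8 ± 0.12 SE, adjusted p = 2.9e-08), with no overlap. In Kn-0 it went from 0.121 ± 0.0286 to 0.222 ± 0.028 (SD, n = 3, adjusted p = 1.7e-07, but 0.084 with the larger variance). Its spliced reads were 1603 in mock and 660 under ABA in Col-0, against 246 and 226 retained reads. A gene on the other strand overlaps this intron in the annotation, and no source used here gives the strand setting of the counting, so reads of the 2 genes cannot be told apart.

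HCS1, ACLA-1, ERDJ3B and AT3G51330 held the other shared rises. HCS1 (AT2G25710) encodes the ligase that attaches biotin to carboxylases. Its intron 1 went from 0.0477 ± 0.0273 to 0.134 ± 0.00721 (SD, n = 3) in Col-0, and in Kn-0 it went from 0.0647 ± 0.0276 to 0.173 ± 0.036, and both calls were lost with the larger variance (adjusted p = 0.18 each). ACLA-1 (AT1G10670), a subunit of ATP-citrate lyase, which makes acetyl-CoA in the cytosol, went from 0.0243 ± 0.00153 to 0.0523 ± 0.00737 in Col-0. In Kn-0 it went from 0.03 ± 0.00854 to 0.067 ± 0.014, a call lost with the larger variance (adjusted p = 0.14). ERDJ3B (AT3G62600), a DnaJ co-chaperone of the endoplasmic reticulum, went from 0.009 ± 0.001 to 0.0293 ± 0.00231 in Col-0, and in Kn-0 it went from 0.011 ± 0.002 to 0.027 ± 0.00794. AT3G51330, a predicted aspartyl protease, went from 0.05 ± 0.0357 to 0.117 ± 0.0129 in Col-0, and in Kn-0 it went from 0.0517 ± 0.00321 to 0.125 ± 0.0293. The Col-0 call of AT3G51330 was lost with the larger variance (adjusted p = 1) and without any 1 of 5 libraries (adjusted p up to 0.63).

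The 3 shared falls were small. PYK10 (AT3G09260), the β-glucosidase of root endoplasmic reticulum bodies, had levels of 0.005, 0.005 and 0.006 in Col-0 mock and 0.003, 0.004 and 0.004 under ABA, and 0.009, 0.009 and 0.01 against 0.006, 0.006 and 0.005 in Kn-0. The reads behind these levels averaged 38902 and 29738 per library, and the calls passed with the larger variance as well (adjusted p = 8.5e-05 and 4.6e-09). The authors' deposited rMATS FDR for PYK10 was above 0.05 in both accessions, as it was for the APX1 and RCA falls below. APX1 (AT1G07890), the cytosolic ascorbate peroxidase that removes hydrogen peroxide, fell at its leader intron of 159 bases from 0.401 ± 0.0193 to 0.316 ± 0.0153 (SD, n = 3) in Col-0, and in Kn-0 it went from 0.363 ± 0.0279 to 0.282 ± 0.0218. Neither APX1 call held with the larger variance (adjusted p = 0.066 and 0.084), nor without any 1 of the 6 Col-0 libraries (adjusted p up to 0.39) or of 4 Kn-0 libraries (up to 0.25). RCA (AT2G39730), Rubisco activase, went from 0.142 ± 0.00777 to 0.137 ± 0.00624 in Col-0, where the groups overlapped, and from 0.133 ± 0.00551 to 0.123 ± 0.00346 in Kn-0. With the larger variance neither passed (adjusted p = 1 and 0.81), and the Col-0 call was lost without any 1 of 3 libraries (up to 0.95).

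**Figure D4:**
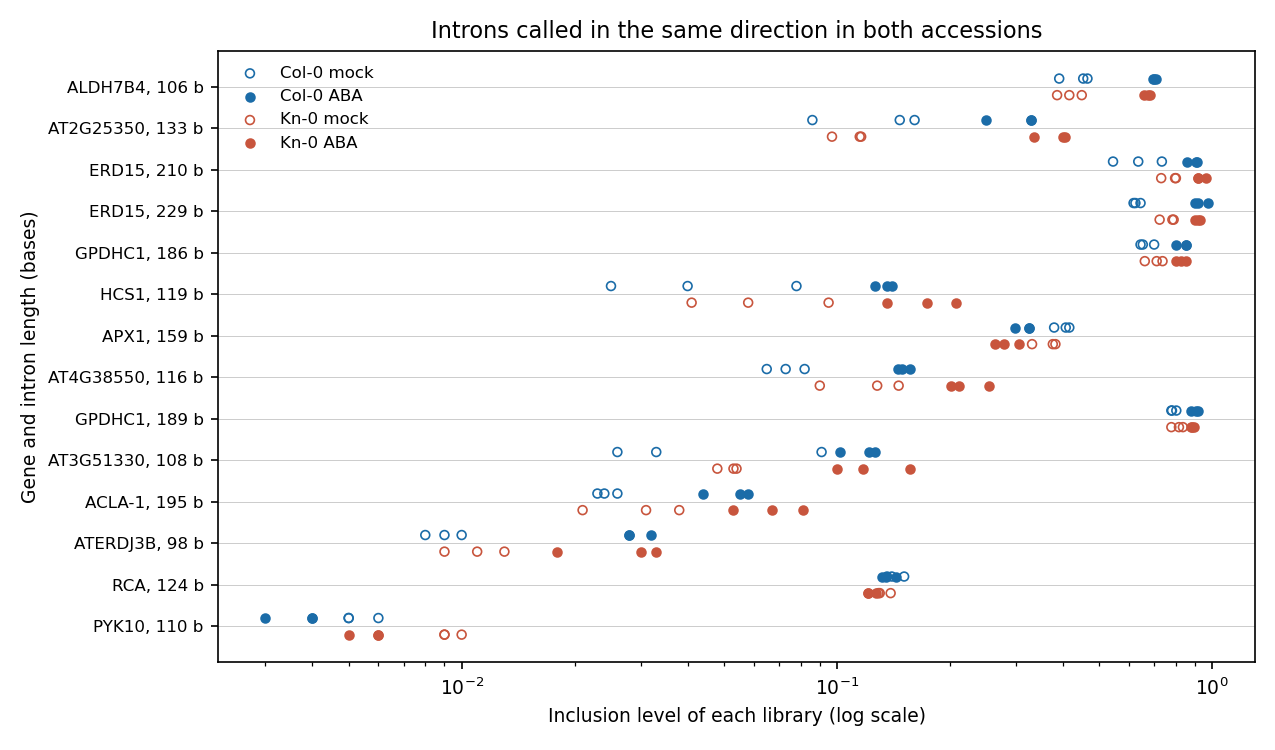
Inclusion level of each library (horizontal axis, log scale) for the 14 introns called in the same direction in both accessions (vertical axis, gene and intron length), with Col-0 blue, Kn-0 red, mock open and ABA filled. ALDH7B4, ERD15, AT2G25350 and GPDHC1 show ABA points to the right of the mock points, and PYK10 ABA points to the left.

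Further rises had no shared call. In Col-0, AT2G47020, a peptide chain release factor, went at intron 8 from 0.14, 0.121 and 0.093 in mock to 0.229, 0.261 and 0.32 under ABA (adjusted p = 0.00094). That call was lost without mock library 3 (adjusted p = 0.078) or ABA library 3 (0.057). SNRK2.10 (AT1G60940), a kinase activated by osmotic stress, went at its leader intron of 173 bases from 0.594, 0.608 and 0.659 to 0.7, 0.717 and 0.754 (logit change 0.48 ± 0.08 SE, adjusted p = 7.6e-07) with no overlap. In Kn-0, AT1G09300, a predicted metallopeptidase, went at an intron of 206 bases from 0.02, 0.025 and 0.028 to 0.107, 0.151 and 0.198 (logit change 1.94 ± 0.34 SE, adjusted p = 1.1e-05). AT4G38550 listed 2 introns of 93 bases in Kn-0, so neither was given a partner, and both rose, the larger rise being from 0.141 ± 0.0118 to 0.268 ± 0.0526 (SD, n = 3). An intron of 93 bases of that gene rose in Col-0 too, from 0.1 to 0.212 (adjusted p = 2.3e-09).

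Several Col-0 rises rest on the common variance. AT3G46658 went from 0.378 ± 0.0391 to 0.654 ± 0.138 (SD, n = 3), AT3G13190 from 0.444 ± 0.0938 to 0.659 ± 0.058, AT1G51645 from 0.48 ± 0.064 to 0.672 ± 0.0454, and AT1G13920, of the remorin family, from 0.185 ± 0.0797 to 0.371 ± 0.062. With the larger variance their adjusted p was 0.52, 0.52, 0.053 and 0.76, and without 1 of the libraries it reached 0.13, 0.41, 0.47 and 0.44. AT3G46658 and AT1G51645 are noncoding genes overlapped on the other strand by another gene.

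Among the falls in Col-0, MYB9 (AT5G16770), a transcription factor of suberin formation, had at intron 3 levels that went from 0.343, 0.25 and 0.373 to 0.106, 0.062 and 0.138 (logit change -1.37 ± 0.26 SE, adjusted p = 0.00015), with no overlap. Spliced reads were 58 in mock and 355 under ABA, against 51 and 76 retained reads, and the deposited log2 fold change of the gene in the authors' deposited table was 2.97. A gene on the other strand overlaps this intron too. ACLB-1 (AT3G06650), the other kind of ATP-citrate lyase subunit, went at leader intron 1 from 0.761, 0.711 and 0.768 to 0.556, 0.449 and 0.372 (adjusted p = 0.0069). The ACLB-1 call was lost without any of the 3 mock libraries or ABA library 3 (adjusted p up to 0.21).

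SULTR1;2 (AT1G78000), the main sulfate uptake carrier of roots, was called in both accessions but at different introns. No member length called in 1 accession was tested in the other, so these calls cannot be compared intron by intron. An intron of 82 bases, outside the length range, was tested in each. It differed by -0.000333 in Col-0, which did not pass, and by -0.0427 in Kn-0 (adjusted p = 0.015). In Col-0 the intron of 112 bases went from 0.141, 0.141 and 0.191 to 0.064, 0.096 and 0.067 (adjusted p = 5.3e-09, but 0.14 with the larger variance). In Kn-0 the introns of 93 and 91 bases went from 0.063 ± 0.00781 to 0.021 ± 0.00985 and from 0.07 ± 0.0115 to 0.0343 ± 0.00603 (SD, n = 3, adjusted p = 0.0004 and 0.0015). All 4 introns of the gene tested in Kn-0 at every length fell. The first of these calls was lost without ABA library 3 (adjusted p = 0.052), and the second without mock library 3 or ABA library 1 (up to 0.079).

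AT3G22600, a lipid transfer protein, went in Kn-0 from 0.064 ± 0.00557 to 0.0393 ± 0.00153 (SD, n = 3, adjusted p = 3e-06) while the authors' deposited table gave the gene a log2 fold change of 3.46. Other Kn-0 falls were lost with the larger variance and without 1 library or more. They were APX1 at 122 bases (0.791 ± 0.0964 to 0.595 ± 0.0123, adjusted p up to 0.46 without 1 of 5 libraries), AT4G03140 (0.216 ± 0.058 to 0.0747 ± 0.0361, up to 0.18) and BGLU45 (0.147 ± 0.0245 to 0.053 ± 0.0195, up to 0.37). The same held in Col-0 for AT5G25630, UNE16, AT4G30690, FER1 and CA2, whose level differences lay between -0.0523 and -0.00167. CA2 at 115 bases in Kn-0 went from 0.051 ± 0.00361 to 0.044 ± 0.00346 and was lost with the larger variance (adjusted p = 0.95).

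Listed genes for ABA signalling, splicing, the clock and stress had at most 1 called member per list and accession. Since 0.211% of members tested passed in Col-0 and 0.22% in Kn-0, counts of 0 or 1 in lists of this size say nothing particular of them. Among 17 of 20 SR and SR-like splicing factors with members, 49 introns were tested in Col-0 with 53 in Kn-0, and 0 passed, with a median logit change of -0.04 in both accessions against 0.0039 and 0.0037 over all members tested. Of the other splicing and RNA-binding proteins, 0 of 38 introns passed in Col-0 and 1 of 42 in Kn-0. That was U2AF65A (AT4G36690), which recognises the polypyrimidine tract before the acceptor, at 0.385 ± 0.0199 in mock and 0.32 ± 0.0258 under ABA (SD, n = 3, adjusted p = 0.021). It was lost with the larger variance (adjusted p = 0.39) and without any 1 of 4 libraries (up to 0.47). Of the ABA receptors, phosphatases, kinases and bZIP factors, 1 of 39 introns rose in Col-0, that of SNRK2.10 above, and 0 of 31 in Kn-0. The clock genes had 0 of 45 and 0 of 37, and photosynthesis and light signalling 1 of 13 and 1 of 12, the RCA intron both times.

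Levels of the listed genes are given as descriptions. In Col-0 mock, 65.1% of 86 SR introns with enough reads were at 0.1 or more, against 41.8% of all members, 73.3% for clock genes and 84.4% for photosynthesis genes. For Kn-0 mock the shares were 57.3% of 89 SR introns, 41.1% of all members, 71.0% and 84.2%. From 0.1 to 0.9 lay only 18 of 86 SR, 16 of 60 clock and 4 of 32 photosynthesis introns in Col-0, against 3818 of 30252 members. In Kn-0 it was 16 of 89, 11 of 62 and 4 of 38, against 3295 of 29429. The remainder at 0.1 or more were above 0.9, where the listed junction was seldom used. Dehydrins, LEA and cold or drought induced genes had 1 member tested in Col-0 and 5 in Kn-0, of which 1 rose. It was KIN1 (AT5G15960) in Kn-0, at 1, 0.765 and 1 in mock on 35 retained and 2 spliced reads, and at 0.998, 0.995 and 0.994 under ABA on 3895 and 8, so the groups overlapped and the mock level rests on 37 junction reads in all. KIN1 has a near-identical neighbour, COR6.6, and its value is uncertain for that reason as well. Heat shock factors and chaperones of the list had 0 members.

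In Col-0, called introns were found in leaders and in introns with a known retained form more often than tested ones, counted without a test. Of the 42 in Col-0, 11 lay in 5′ UTRs, 28 in coding sequence, 2 in noncoding transcripts, 1 in a 3′ UTR and 0 at unannotated junctions. Among all members tested the 5′ UTR share was 4.45%, the coding share 82.9% and the unannotated share 11.1%. An annotated retained form existed for 27 of the 42, against 15.9% of members tested. Of the 28 coding ones, 22 held a stop codon in frame and 2 kept the frame. GTAAGT opened 4 of the 42, against 7.21% of those tested. A gene on the other strand overlapped 8 of the 42, against 1.58% of those tested, and the part of antisense reads in those levels was not tested. The 42 are not independent, since ERD15 and GPDHC1 gave 2 leader introns each and AT4G38550 gave 4. Both kinds of intron also had higher levels, and whether that made them easier to call was not tested. For 24 Kn-0 calls with a Col-0 partner, 9 lay in 5′ UTRs, 16 had an annotated retained form and 1 had such an overlap.

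Genes with a risen intron were more often higher than lower in Col-0, and about evenly so in Kn-0. By the authors' deposited table, at its adjusted p under 0.05, 15 of 25 such genes were higher and 4 lower in Col-0, where 22.4% of 7576 genes with tested members were higher and 17.0% lower. In Kn-0, 7 of 19 were higher and 6 lower, where 26.2% were higher and 24.0% lower. In the authors' deposited tables the median log2 fold change of genes with a risen intron was 0.34 for Col-0 and -0.01 for Kn-0. For genes with a fallen intron the counts were 2 higher and 3 lower of 12 in Col-0, and 4 and 4 of 14 in Kn-0. AT3G51330 and ERDJ3B had risen introns with deposited log2 fold changes of -1.09 and -0.43 in Col-0 in the authors' deposited table.

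The second question was whether the accessions differ in the ABA change. Over 7616 members matched with equal flanking exons and tested in 1 fit of 12 libraries, 0 had an interaction that passed, where 0.0% of 12657 introns of every length passed. At an unadjusted p under 0.05 there were 461, or 6.05%, the smallest adjusted p was 0.39, and limma on inclusion levels also called 0. A missed threshold does not show that the responses were alike. For GPDHC1 the difference in logit change, Kn-0 minus Col-0, was -0.24 ± 0.12 (SE) at 186 bases and -0.26 ± 0.15 at 189 bases (adjusted p = 0.81 and 0.83), and for PYK10 it was -0.19 ± 0.08 (adjusted p = 0.76). Matched without the flanking exons, AT2G25350 had 0.57 ± 0.24 and ERD15 at 229 bases -0.7 ± 0.3 (adjusted p = 0.74 each), and ALDH7B4 -0.08 ± 0.07 (adjusted p = 0.92).

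The other question was where the accessions differ in level. In mock, 240 of 7616 matched members passed, or 3.15%, where 2.98% of 12657 introns of every length passed. Of these 188 were higher in Kn-0 and 52 lower, and 69 differed by at least 0.1 in level, 48 of them higher in Kn-0. Over all matched members the median difference in logit was 0.1, so most shifted slightly towards Kn-0. Centred on the median matched intron, 193 passed, 118 higher and 75 lower. With the larger variance 145 passed. Under ABA 227 passed, where 2.92% of introns of every length passed, and 139 did without Col-0 ABA library 1. In both treatments 128 were called, in the same direction in all 128, which is 53.3% of the mock and 56.4% of the ABA calls. Still, 90.7% of matched members differed by less than 0.05 in mock.

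The named introns are those with the largest differences in mock, 8 in each direction. At REV1 and AT1G31500 the level was high in 1 accession and low in the other, and at LIG6 a middle level stood against a low one. Except at LIG6, AT1G31500, AT1G49980 and A/N-InvB, each named intron overlaps another listed retained intron. The levels of those that overlap, REV1 among them, compare retention with only 1 of the listed junctions. The junctions of AT2G45245, AT1G02300, NUC-L1, AGL31 and A/N-InvB were also absent from the annotation used here. Introns of the accessions were listed on different coordinates, so an accession difference and an effect of the genome used cannot be told apart for any named intron. REV1 (AT5G44750), a DNA polymerase that copies past damaged bases, was at 0.973, 0.917 and 0.925 in Col-0 mock at an intron of 94 bases and at 0.07, 0.021 and 0 in Kn-0 (adjusted p = 7e-18), on a mean of 24.3 junction reads per library in Kn-0. LIG6 (AT1G66730), a DNA ligase, was at 0.39, 0.448 and 0.428 against 0.009, 0.006 and 0.005 (adjusted p = 1e-15). In the opposite direction, AT1G31500, a predicted nuclease, was at 0.013, 0.011 and 0.021 in Col-0 and at 0.803, 0.731 and 0.829 in Kn-0 (adjusted p = 1.2e-43). The accessions did not overlap at any of the 3, and under ABA the differences of Kn-0 minus Col-0 were -0.897, -0.326 and 0.819 (adjusted p = 1.3e-14, 1.2e-16 and 3e-32).

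Another 4 introns with large differences were lower in Kn-0. AT2G45245 was at 0.828 ± 0.124 in Col-0 against 0.106 ± 0.0361 in Kn-0 (SD, n = 3), AT1G14120 at 0.797 ± 0.0477 and 0.103 ± 0.0189, AT1G05870 at 0.77 ± 0.0272 and 0.112 ± 0.015, and AT1G27520, a glycosyl hydrolase, at 0.761 ± 0.0717 and 0.154 ± 0.0191. Higher in Kn-0 were AT1G49980 (0.0697 ± 0.00929 and 0.648 ± 0.022), AT1G02300 (0.273 ± 0.132 and 0.953 ± 0.0475), AT5G65685 (0.184 ± 0.0735 and 0.729 ± 0.121) and AT1G19340, of the MT-A70 methyltransferase family (0.379 ± 0.167 and 0.79 ± 0.0999). All 8 passed with an adjusted p of 5.1e-06 or less in mock and 6.6e-05 or less under ABA. The Kn-0 level of AT1G14120 rests on a mean of 14.7 junction reads per library, against 96.7 in Col-0.

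Genes with close copies need more care. NUC-L1 (AT1G48920), a nucleolin, was at 0.193 ± 0.0767 in Col-0 against 0.921 ± 0.0367 in Kn-0 (SD, n = 3). VAB2 (AT4G38510), a subunit of the vacuolar proton pump, was at 0.027 ± 0.00794 and 0.633 ± 0.137, and AGL31 (AT5G65050), of a tandem cluster of flowering repressors, at 0.318 ± 0.198 and 0.832 ± 0.0317. All 3 passed (adjusted p of 1.1e-08 or less), but reads of near copies could be split differently in each genome, and that was not tested. Mean junction reads per library were 26.0 for NUC-L1 and 15.2 for AGL31 in Col-0, and 41.2 for VAB2 in Kn-0. In the other accession they were 318, 265 and 776. A/N-InvB and LSM6B passed barely (adjusted p = 0.04 and 0.046) on means of 16.8 and 12.7 reads per library in Col-0. Both were lost with the larger variance (adjusted p = 0.093 and 0.065) and without any 1 of 5 and of 6 libraries (up to 0.3 and 0.2).

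**Figure D5:**
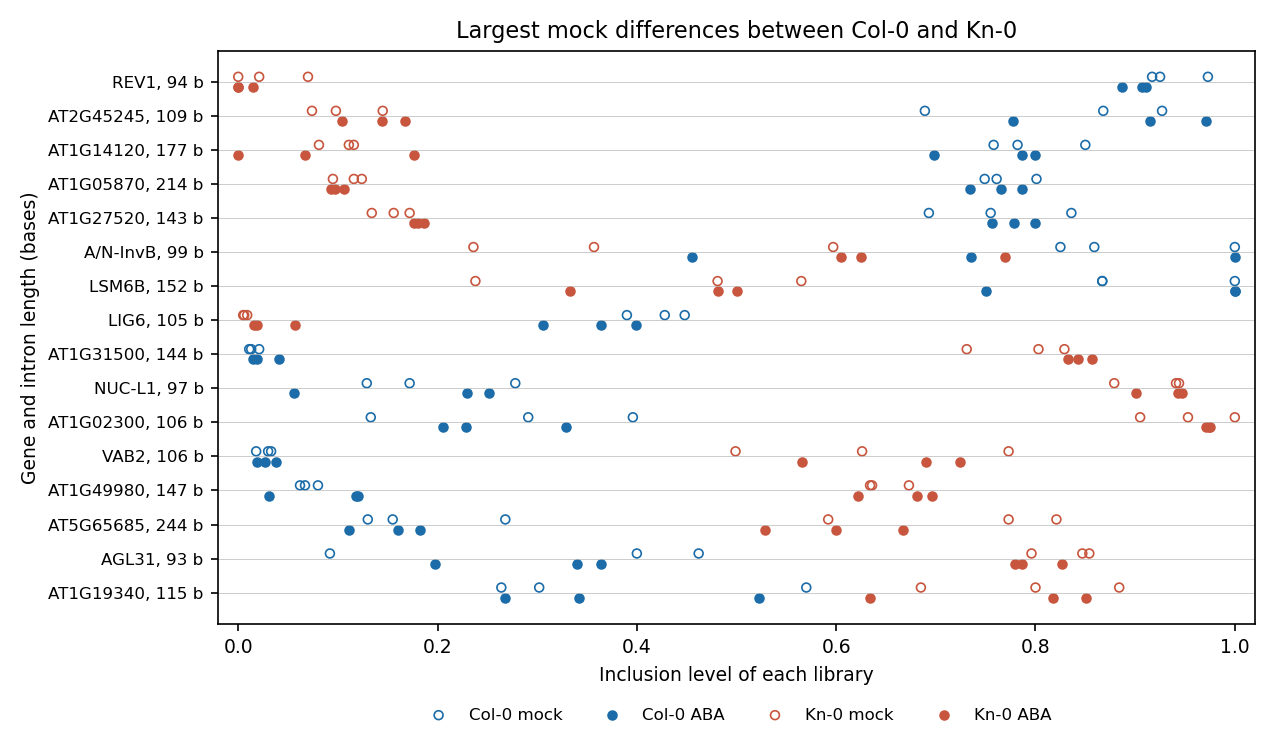
Inclusion level of each library (horizontal axis, 0 to 1) for the 16 members with the largest mock differences between the accessions (vertical axis, gene and intron length), with Col-0 blue, Kn-0 red, mock open and ABA filled. REV1, LIG6 and AT1G31500 show no overlap of the accessions in mock or under ABA.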

How the data were processed

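Polyadenylated RNA of 12 libraries was analysed from the authors' deposited splicing tables, 1 per accession, and their deposited gene tables. STAR, featureCounts, DESeq2 and the TAIR10 build appear in the submitters' processing notes, with neither role nor version. Per the file headers, the deposited splicing tables hold rMATS inclusion levels as a fraction, junction reads, p-value and FDR columns and an inclusion difference, a score of mock minus ABA. The authors' gene tables hold, by their headers, mean signal (normalised counts), log2 fold changes, a Wald statistic as a score and p-values, all as deposited. The rMATS version and the Kn-0 genome are not given in the sources used here.

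Commas between the reads of 3 libraries were lost in 56.98% of Col-0 and 60.24% of Kn-0 introns. The digits were divided so that the deposited levels were met within 0.0005, with the most even totals where several divisions did so (4555 and 4337 cells), and 5 and 8 introns failed. The direction was checked: junction reads of ABA over mock had r = 0.977 and 0.975 with the deposited gene fold changes, across 8448 and 8157 genes. Within groups, library pairs had chi-square values of 2.33 to 5.7 times their degrees of freedom, and none was treated as a duplicate.

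Members, lists and tests were chosen with earlier results of these data known. The planned edgeR fit was replaced, because the read columns could not be used as deposited counts, by limma 3.58.1 in R 4.3.3 on logits of inclusion over skipping reads, 0.5 added to each and each divided by its effective length. Weights came from the reads, with a variance trend on depth. Introns needed a mean of 10 junction reads per library and 10 inclusion and 10 skipping reads in all. Benjamini-Hochberg adjustment ran over introns of every length. Limma's prior degrees of freedom were infinite for Col-0 as for Kn-0, so each intron received the common variance of its depth. A fit with the larger of that and the intron's own was added after the data were seen. It kept the pooled degrees of freedom, not those of an intron's own variance, so its p-values can be too small. In simulated data of 34872 Col-0 introns, 50 were changed at each size, and logit changes of 0.5, 1, 2 and 3 were recovered in 24%, 38%, 66% and 62% of these 50, with 5% of calls false. In 34104 Kn-0 introns, again 50 per size, the values were 18%, 52%, 66% and 78%, with 1.8% false. These percentages hold only for the spread that was simulated. The common variance was at most 1.903 for Col-0 and 2.378 for Kn-0. Among called members the largest own variance was 42.1 for Col-0 and 19.8 for Kn-0, so the false shares need not hold for calls of that kind. Accessions were compared over introns of equal gene, strand and length, unique in both tables, whose coordinate offset lay within 50 bases of the median offset of their gene. Genes with under 3 such introns needed 1 flanking exon of equal length instead. For the tests both flanking exons had to be of equal length, a condition added after the data were seen. The 14 shared calls were paired without it, and 5 of them meet it. 15493 members had a partner (46.4% of Col-0, 48.0% of Kn-0) and 9657 with equal exons.

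Sequences and annotation are RefSeq's of TAIR10. All 33425 Col-0 members had a gene in it. Named introns were, per accession, the 10 largest rises and 10 largest falls among called introns without overlap, up to 15 called in both accessions, up to 8 per direction between accessions, and those of listed genes. Python 3.11.15 was used for summaries. Introns with few junction reads have imprecise levels.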

Additional observations from a re-analysis of the deposited data

How the results depend on the processing

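Counts of introns changed by ABA depended on the setting, and the cause was not tested. In Col-0, 42 members passed; the larger variance left 18, no filter on reads 23, a level difference of at least 0.1 18, and limma on unweighted inclusion levels 4, while the deposited rMATS rule gave 100. In Kn-0, 43 passed, against 21, 24, 17, 5 and 83. A mean of at least 20 reads left both counts at 42 and 43. Leaving out 1 library gave 27 to 35 in Col-0 and 29 to 49 in Kn-0. The interaction had 0 calls under every alternative run. Mock differences between accessions, 240, became 145 with the larger variance, 547 without the flanking exons, 119 on unweighted levels and 173 to 246 without 1 library. Those under ABA, 227, became 140, 516, 135 and 139 to 233. The difference in library medians changed sign over all introns (-0.0005) and for the mean over introns (-0.000955), and ran from -0.000292 to 0.0005 without 1 library, with p over 0.05 throughout. The differences from shorter and longer introns, 0.013 and -0.741, kept their direction but became 0.131 and -0.206 as means over introns, 0.0257 and -0.774 over all introns and 0.00783 and -0.51 with at least 20 reads. They ran from 0.0129 to 0.0132 and from -0.747 to -0.736 without 1 library. Of 71 named results 0 reversed, and 47 kept the threshold in every fit without 1 library in which they were tested. KIN1 in Kn-0, among the 47, was tested in only 2 of these fits. No paired analysis was possible because the values in a cell carry no replicate numbers, so a library number here is its order in the cell. DESeq2 and a fit without normalization factors were not run. No intron was listed more than once, so the choice of row changed nothing. Groups of 3 libraries were too small for a test of single outlying libraries.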
